A study of Homo sapiens with 6 samples.

Results

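The genes described here encode the 3 colony-stimulating factors (CSF1, CSF2 and CSF3), 4 ligands of the interleukin-6 family (IL6, IL11, LIF and CLCF1) and 3 receptor chains of that family (IL6ST, LIFR and IL6R). They were taken by symbol from the deposited count table, 10 of its 58735 genes, and all 10 passed the filter on low counts. Transcripts were measured by RNA sequencing in MDA-MB-231 cells, a widely used human breast cancer line that lacks the estrogen and progesterone receptors and HER2 amplification. The 3 overexpression libraries came from cells transfected with a vector named DNAJC12v in the labels and carry the genotype DNAJC12 overexpression. The 3 control libraries came from the same line transfected with the empty vector. The labels do not say whether the transfected cells were pools or clones, how long after transfection they were taken, or whether replicates were grown as separate cultures. The p-values therefore reflect variation among these 6 libraries alone, and that variation may be technical.

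Colony-stimulating factors are secreted cytokines that support the growth and activation of myeloid cells. CSF1 (M-CSF) acts on macrophages and their precursors, CSF2 (GM-CSF) on granulocytes, macrophages and dendritic cells, and CSF3 (G-CSF) on neutrophils. Ligands of the interleukin-6 family signal through receptor complexes that contain the shared chain gp130, the product of IL6ST, and activate JAK kinases and STAT3. IL6R binds IL-6 and LIFR is the partner of gp130 for LIF. Carcinoma cells can secrete several of these cytokines, and IL-11 is known for its part in the bone metastasis of breast cancer, where it promotes osteoclast formation.

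Promoter stretches of CSF2, IL11 and IL6 are shown because CSF2 and IL11 were 2 of the 3 members that fell, whereas IL6, also an abundant ligand here, did not pass the test. They come from RefSeq on GRCh38.p14, whose promoter table matched 6 of the 10 members. CSF1, CSF3, LIF and CLCF1 were not matched. Each is written 5′ to 3′ on the strand of its gene and ends at the base before the RefSeq start, or, for IL6, before the first base of the window that GENCODE 29 annotates as an exon of the gene. Capitals mark matches, on either strand, to motifs searched in the 250 bases before the start. CSF2 lies at chr5:132073539-132073788 on the plus strand, IL11 at chr19:55370464-55370713 on the minus strand and IL6 at chr7:22726950-22727146 on the plus strand.
CSF2: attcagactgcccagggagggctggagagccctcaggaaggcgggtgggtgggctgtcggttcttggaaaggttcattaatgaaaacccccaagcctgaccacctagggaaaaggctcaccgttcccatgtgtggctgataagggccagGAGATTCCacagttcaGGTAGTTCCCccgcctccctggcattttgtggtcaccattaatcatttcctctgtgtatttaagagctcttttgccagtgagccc
IL11: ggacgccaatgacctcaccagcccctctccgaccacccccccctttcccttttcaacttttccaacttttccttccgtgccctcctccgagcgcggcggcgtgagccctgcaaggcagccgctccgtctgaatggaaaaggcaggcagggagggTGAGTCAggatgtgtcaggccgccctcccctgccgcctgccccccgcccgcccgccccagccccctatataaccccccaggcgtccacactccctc
IL6: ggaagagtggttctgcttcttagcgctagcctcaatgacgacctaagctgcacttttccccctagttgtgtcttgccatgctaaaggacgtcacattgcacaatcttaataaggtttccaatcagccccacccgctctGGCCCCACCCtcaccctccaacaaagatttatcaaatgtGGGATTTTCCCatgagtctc

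The capitals in CSF2 are the core of the cytokine element CK-1, GAGATTCC, at bases -101 to -94 from the start, and a match to the kappa-B pattern on the opposite strand at -85 to -76. The kappa-B pattern was GGG, any 5 bases and CC. The capitals in IL11 are an AP-1 motif, TGANTCA, at -96 to -90, whose pattern matches on both strands. In IL6 they are kappa-B matches, 2 of them overlapping and on opposite strands at -73 to -63, and 1 on the opposite strand at -112 to -103. The kappa-B pattern had a match in 54.4% of 35116 promoter windows of the same length, AP-1 in 6.57% and the CK-1 core in 0.735%. CRE-like motifs (TGACGTCA or TGACGCAA, in 2.11% of windows) and the composite of ATF4 and C/EBP (TGATGNAA, 3.14%) had no match in the windows of the 6 members. TATAAA, in 10.7% of windows, was found in 1 of the 3 windows of LIFR, at -200 to -195 on the strand of the gene and, overlapping it, at -202 to -197 on the opposite strand, and in no other member's window.

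Counts of DNAJC12 were 522, 523 and 492 in the overexpression libraries, and 1, 0 and 0 with the empty vector. Libraries held 17967283 to 18887497 counts. The mean GC content of their counts ran from 51.9% to 54.3% with DNAJC12 and from 52.4% to 53.7% with the empty vector, lowest in overexpression replicate 1 and highest in replicate 2. Of the markers of the line, VIM, CD44, KRT8 and KRT18 summed to 3397 to 5572 CPM (counts scaled by the normalized library size) in each library, and of 3 genes expected to be low, ESR1 and PGR were under 1 CPM in every library and CDH1 was at 2.45 to 5.10 CPM. T-cell markers summed to at most 0.322 CPM, with CD3E and CD2 at 0 counts. The 6 macrophage markers summed to 9.16 to 20.4 CPM with DNAJC12 and 14.2 to 17.1 CPM with the empty vector. Of these, PTPRC, CD68, LYZ and ITGAM were under 1 CPM in every library. CD14 had 4.85 to 12.6 CPM and CSF1R 3.76 to 8.56 CPM over the libraries of both groups. The 5 fibroblast markers summed to 6.85 to 10.9 and 6.81 to 11.5 CPM. The 4 endothelial markers differed between the groups, at 6.06 to 9.91 CPM with DNAJC12 and 17.8 to 25.8 CPM with the empty vector. That gap was in PECAM1, while KDR had 1.58 to 4.10 CPM, and CDH5 and VWF under 1 CPM, over the libraries of both groups. Its part in the results that follow was not tested.

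Across the 10 genes, 3 ligands fell with DNAJC12 and no member rose. CSF3 was 4.40-fold lower, IL11 3.46-fold lower and CSF2 2.39-fold lower than with the empty vector. IL6, LIF and CLCF1 had values in the same range in both groups, and none of the 3 receptor chains passed the test. CSF1 was lower in all 3 overexpression libraries without passing the test. Of all 14520 genes tested, 1.25% were called and 0.661% were called lower, against 3 of 10 members called lower. Calls are adjusted p under 0.05 in edgeR's quasi-likelihood test, adjusted by Benjamini-Hochberg over the whole table. The median log2 fold change was -0.35 for the 10 members and 0.05 for all genes tested. At p under 0.05 without adjustment, 4 members were lower and 0 higher, where 14.1% of all tested genes passed. The DESeq2 Wald test called 3 members lower and 0 higher, and 3.89% of all tested genes. No member was called lower by limma on log2(FPKM + 1) with no filter (adjusted p of 0.135 for CSF2, 0.0774 for CSF3 and 0.0600 for IL11), or by edgeR when overexpression replicate 3 was left out. In bulk RNA, fewer cells making a transcript and less of it per cell cannot be told apart.

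**Figure D1:**
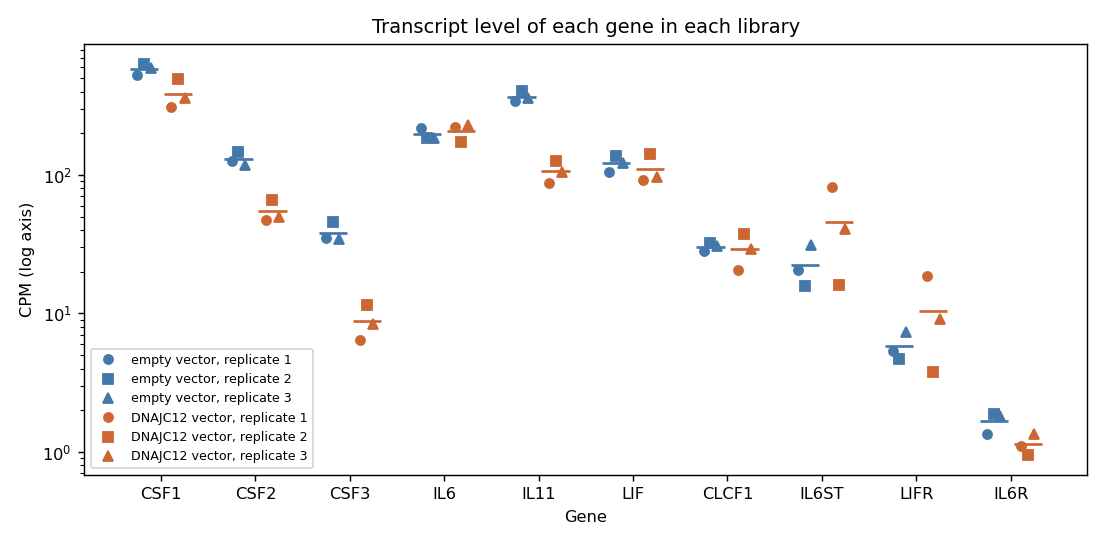
CPM of each of the 10 genes (log axis) in the 3 empty vector and 3 overexpression libraries, 1 point per library with the replicate as the symbol and a bar at the group mean. The overexpression points of CSF1, CSF2, CSF3 and IL11 all lie below the empty vector points, and those of IL6ST and LIFR are spread widely.

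CSF3 encodes G-CSF, the main growth factor of neutrophils (ENSG00000108342, plus strand of chromosome 17, 40015361 to 40017813 in GRCh38). It was read at 34.9, 45.8 and 34.4 CPM in empty vector replicates 1 to 3 and at 6.40, 11.5 and 8.35 CPM in overexpression replicates 1 to 3. The highest overexpression library lay well below the lowest empty vector library. The log2 fold change was -2.14 ± 0.28 (SE), with an adjusted p of 0.0106 by edgeR's test, and 0.317% of the tested genes had a larger fall. The call of CSF3 was lost when overexpression replicate 3 was left out (adjusted p = 0.0922, edgeR), and likewise empty vector replicate 1, 2 or 3 (0.06998, 0.0516 and 0.0555). Its log2 fold change stayed between -2.38 and -1.96 in the 6 fits without 1 library. Leaving out overexpression replicate 3 gave 0.168% of all tested genes called, and leaving out the first empty vector library gave 0.168% too.

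IL11 encodes interleukin-11 (ENSG00000095752, minus strand of chromosome 19, 55364389 to 55370463). Its 3 empty vector libraries stood at 339, 403 and 361 CPM and its 3 overexpression libraries at 87.3, 127 and 105 CPM. No overexpression library came near the empty vector range, and within each group replicate 2 was the highest. The log2 fold change was -1.79 ± 0.21 (SE) with an adjusted p of 0.00604 by edgeR's test, the smallest among the 10 genes. Without overexpression replicate 3 the adjusted p of IL11 was 0.0676 in edgeR's test, while each of the other 5 fits without 1 library called it.

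CSF2 encodes GM-CSF (ENSG00000164400, plus strand of chromosome 5, 132073790 to 132076170). It had 127, 146 and 118 CPM in empty vector replicates 1 to 3 and 47.4, 66.05 and 50.1 CPM in overexpression replicates 1 to 3. The groups did not overlap, and the spread within each was small beside the gap. The log2 fold change was -1.26 ± 0.22 (SE) with an adjusted p of 0.0290 by edgeR's test. CSF2 lost its call when overexpression replicate 3 was left out (adjusted p = 0.196, edgeR) and when empty vector replicate 1, 2 or 3 was (0.146, 0.137 and 0.135), with log2 fold changes from -1.42 to -1.17 over the 6 fits without 1 library.

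CSF1, the macrophage growth factor (ENSG00000184371, plus strand of chromosome 1, 109910242 to 109930992), gave the most counts of the 10 genes in every library. It had 529, 637 and 590 CPM with the empty vector and 309, 491 and 361 CPM with DNAJC12. All 3 overexpression libraries were below all 3 empty vector libraries, and replicate 2 came nearest to the empty vector range. The log2 fold change was -0.60 ± 0.22 (SE), with a 95% interval of -1.10 to -0.10 and an adjusted p of 0.266 by edgeR's test. CSF1 passed the test without overexpression replicate 2 (-0.81, adjusted p = 0.00337, edgeR), a fit that called 22.5% of all tested genes. With CSF2, CSF3 and IL11 it made 4 of 10 members lower in the overexpression libraries with no overlap between groups, against 10.8% of all tested genes, and 20.1% of them did not overlap in either direction.

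**Figure D2:**
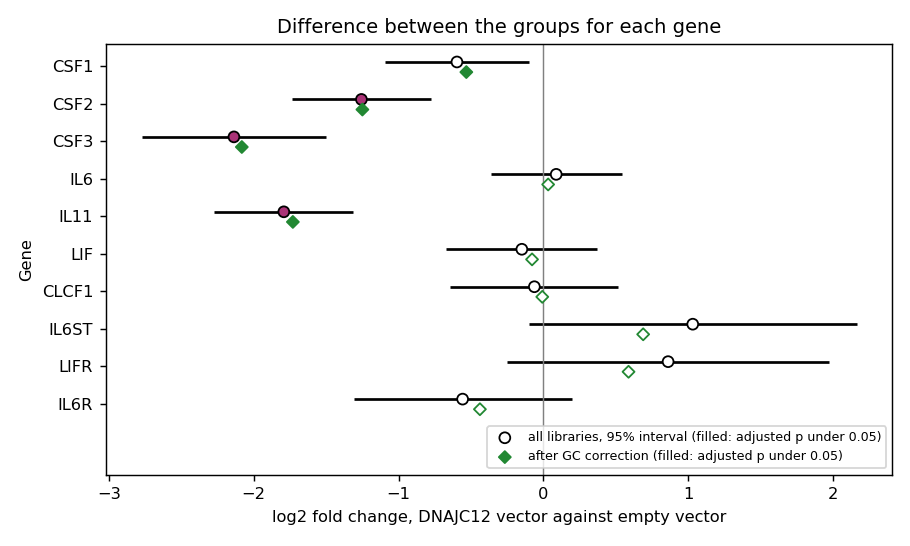
Log2 fold change of each gene, DNAJC12 vector against empty vector, with its 95% interval (circles, all libraries) and after a correction for GC content (diamonds). Filled symbols have an adjusted p under 0.05: CSF2, CSF3 and IL11 in both fits, and CSF1 only after the GC correction.

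The other 3 ligands of the interleukin-6 family did not pass the test. IL6, the founding member of the family (ENSG00000136244, plus strand of chromosome 7, 22725884 to 22732002), had 219, 184 and 186 CPM with the empty vector and 224, 174 and 228 CPM with DNAJC12. The groups overlapped, with a log2 fold change of 0.09, a 95% interval of -0.36 to 0.54 and an adjusted p of 0.889 by edgeR's test. LIF, leukemia inhibitory factor (ENSG00000128342, minus strand of chromosome 22, 30240447 to 30246851), had 106, 138 and 123 CPM with the empty vector and 91.5, 142 and 97.1 CPM with DNAJC12. Its overexpression libraries held both the highest and the lowest value, and the log2 fold change was -0.15 (95% interval -0.67 to 0.37). CLCF1, cardiotrophin-like cytokine factor 1 (ENSG00000175505, minus strand of chromosome 11, 67364168 to 67374177), had 28.2, 32.2 and 30.6 CPM with the empty vector and 20.5, 37.7 and 29.01 CPM with DNAJC12. Its log2 fold change was -0.06 (95% interval -0.64 to 0.52), and it turned to 0.13 without overexpression replicate 1. These intervals do not show that the 3 genes were unchanged.

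Per length of gene, the order of the ligands differed between the groups. The authors' gene length, such as 2069 bases for IL6, may differ from the length of the transcripts present. The order between genes depends on that length. FPKM, the authors' count scaled by gene length and library depth, is used here because CPM cannot be compared between genes. With the empty vector the levels ran from CSF2 (165 ± 18.9 FPKM, SD, n = 3) and IL11 (137 ± 12.7) to CSF1 (108 ± 10.5) and IL6 (94.3 ± 8.96), and then to LIF (30.6 ± 4.197), CSF3 (17.2 ± 2.96) and CLCF1 (15.3 ± 1.08). The ranges of CSF2 and IL11 overlapped, as did those of CSF1 and IL6 and those of CSF3 and CLCF1. With DNAJC12 the highest was IL6 (99.7 ± 13.5 FPKM, SD, n = 3), followed by CSF1 (70.8 ± 17.7) and CSF2 (68.6 ± 13.3), all 3 with overlapping neighbours. IL11 (39.4 ± 7.60 FPKM), LIF (27.5 ± 7.11), CLCF1 (14.6 ± 4.41) and CSF3 (3.91 ± 1.18) came after them, and the ranges of IL11 and LIF overlapped. With the empty vector each receptor chain was below all 7 ligands, at 2.41 ± 0.848 FPKM for IL6ST, 0.486 ± 0.112 for LIFR and 0.259 ± 0.0470 for IL6R. With DNAJC12 the mean of IL6ST (4.89 ± 3.50) was above that of CSF3, with overlapping ranges, and LIFR (0.873 ± 0.620) and IL6R (0.174 ± 0.0306) were below all 7.

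The ratio of IL11 to IL6 in FPKM shows the change in order within single libraries. It was 1.20, 1.70 and 1.503 in empty vector replicates 1 to 3 and 0.303, 0.563 and 0.355 in overexpression replicates 1 to 3. In FPKM, IL11 was thus above IL6 in every empty vector library and below it in every overexpression library. Which gene is above depends on the gene lengths used, 2671 bases for IL11 and 2069 for IL6. The change of the ratio between libraries does not depend on them. For CSF2 to IL6 the ratio was 1.52, 2.09 and 1.66 with the empty vector and 0.557, 0.996 and 0.578 with DNAJC12. CSF3 to CSF2 went from 0.0977, 0.111 and 0.104 to 0.0479, 0.0617 and 0.0591. Of 6 such ratios computed, each gave p = 0.1 in a two-sided exact permutation test, and 0.1 after Benjamini-Hochberg adjustment over the 6. That is the smallest p that 3 against 3 libraries can give, so no ratio could have passed 0.05. The numerator of each was IL11, CSF2 or CSF3, the members that fell, so the ratios add no evidence to those calls.

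**Figure D3:**
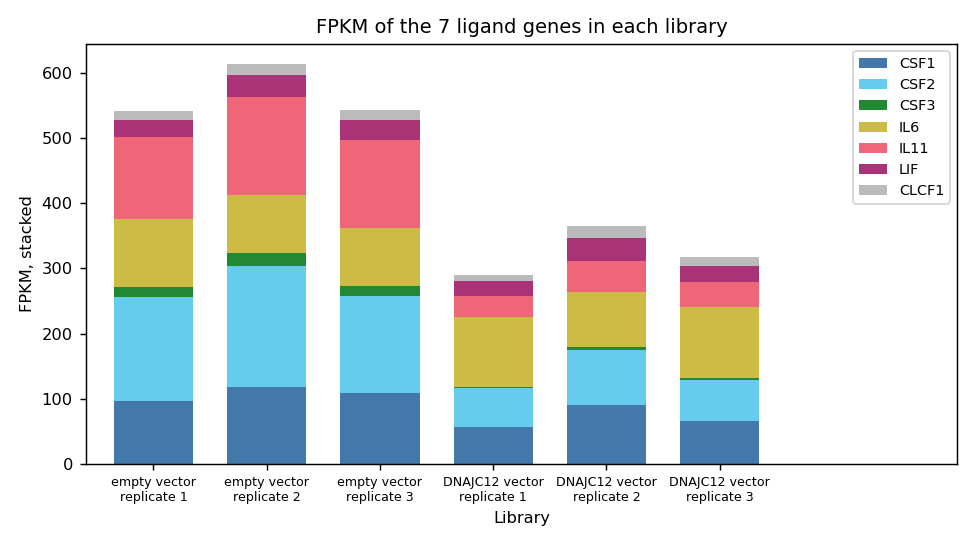
FPKM of the 7 ligand genes stacked for each library. The sum is 542 to 614 with the empty vector and 290 to 366 with DNAJC12, and the blocks of CSF2 and IL11 account for most of the gap.

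Summed over the 7 ligands, the empty vector libraries had 542, 614 and 543 FPKM and the overexpression libraries 290, 366 and 318 FPKM. IL11 made up 23.2% to 24.8% of that sum with the empty vector and 11.1% to 13.0% with DNAJC12. The share of CSF2 was 27.4% to 30.2% and 19.7% to 22.9%, and that of CSF3 2.84% to 3.36% and 0.980% to 1.41%. IL6 held 14.4% to 19.3% and 23.0% to 36.7%. CSF1 held 17.8% to 19.95% of the sum with the empty vector and 19.4% to 24.8% with DNAJC12. A share moves when other genes in the sum change.

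The receptor chains IL6ST and LIFR were uneven among the overexpression libraries. IL6ST (ENSG00000134352, gp130, minus strand of chromosome 5, 55935095 to 55994993) had 81.5, 15.97 and 40.6 CPM in overexpression replicates 1 to 3 and 20.6, 15.8 and 31.2 CPM in the empty vector replicates. LIFR (ENSG00000113594, minus strand of chromosome 5, 38474963 to 38608354) had 18.6, 3.79 and 9.13 CPM against 5.36, 4.72 and 7.29 CPM. For both genes, overexpression replicates 1 and 3 lay above every empty vector library and replicate 2 among or below them. The log2 fold changes were 1.03 ± 0.50 (SE) for IL6ST and 0.86 ± 0.49 for LIFR, with adjusted p of 0.404 and 0.483 by edgeR's test. Without overexpression replicate 1 these were 0.32 and 0.16, and without replicate 2 they were 1.44 and 1.26, with adjusted p of 0.00638 and 0.0135 by edgeR. IL6ST was also called with no filter on low counts, where 2.52% of 27310 genes were, and both IL6ST and LIFR without both libraries numbered 2, where 18.7% were. IL6R (ENSG00000160712, the IL-6 receptor alpha chain, plus strand of chromosome 1, 154405193 to 154469450) was rare, with 15 to 34 counts in each library. It had 1.34, 1.89 and 1.81 CPM with the empty vector and 1.10, 0.947 and 1.36 CPM with DNAJC12, an overlap by 1 library, and a log2 fold change of -0.56 (95% interval -1.31 to 0.19).

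GC content differed between the libraries and between the genes. The transcripts of IL6ST have a mean GC content of 39.9% and those of LIFR of 42.7%, at the percentiles 6.46 and 16.9 of the tested genes. Those of IL11 (62.4%) and CSF3 (61.1%) lie at the percentiles 90.9 and 87.4, and CSF2 (50.3%) lies at 50.2. The library with the lowest GC content, overexpression replicate 1, had the highest IL6ST and LIFR and the lowest CSF1, CSF2, CSF3, IL11, LIF and CLCF1. Among the empty vector libraries, CSF1, IL11, LIF and CLCF1 were likewise lowest in replicate 1, with 52.4% GC, and highest in replicate 2, with 53.7%. The order did not hold there for IL6ST, LIFR, CSF2 and CSF3. Replicate 3, with 53.3%, had more IL6ST and LIFR than replicate 1, and the lowest CSF2 and CSF3. After a correction of each library for its trend with GC content, the log2 fold changes of CSF3, IL11 and CSF2 were -2.08, -1.73 and -1.25 (adjusted p = 2.03e-05, 1.67e-05 and 0.000678, edgeR). That correction brought CSF1 past the test, at -0.53 ± 0.09 (SE) and an adjusted p of 0.00327, with 378, 402 and 395 corrected CPM against 555, 573 and 572. IL6ST and LIFR were at 0.69 and 0.59 and did not pass. The corrected fit called 17.4% of all tested genes, against 1.25% without correction.

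**Figure D4:**
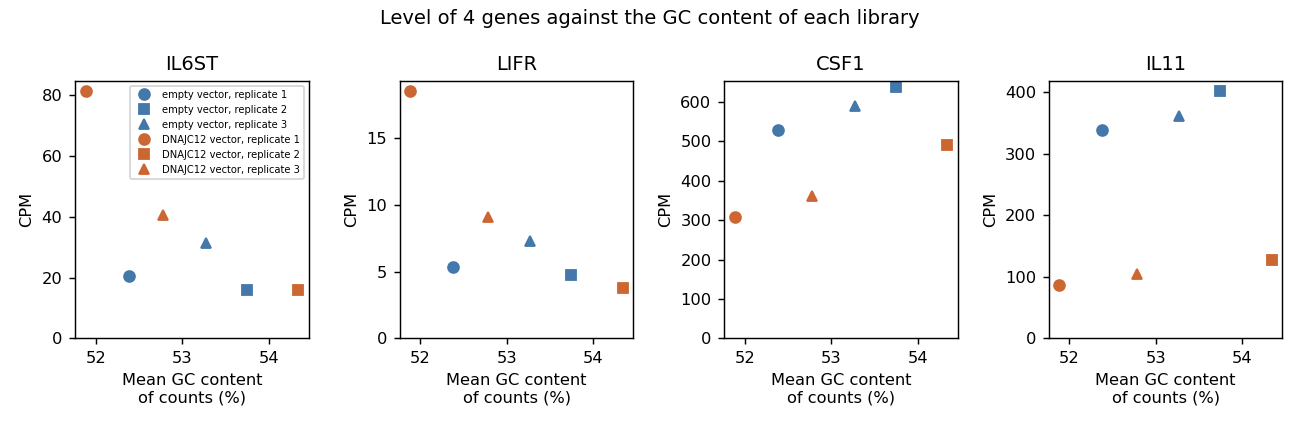
CPM of IL6ST, LIFR, CSF1 and IL11 in each library against the mean GC content of the library's counts, with the replicate as the symbol. Overexpression replicate 1, at 51.9%, has the highest IL6ST and LIFR. IL11 rises with GC content within each group, from 87.3 to 127 CPM with DNAJC12 and from 339 to 403 CPM with the empty vector.

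Among other ligands of these receptor families, few transcripts were present. Of 10 listed genes 4 were tested, none passed, and IL3, IL5 and IL31 had no count in any library. The most abundant were CTF1, cardiotrophin 1, and EBI3, a subunit of IL-27 and IL-35, with 4.62 and 5.11 FPKM with the empty vector and log2 fold changes of 0.53 and -0.67. Unadjusted p-values were under 0.05 for 1 lower and 0 higher gene, where 14.1% of all tested genes passed. The DESeq2 Wald test called 0, and 3.89% of all tested genes. IL3, the nearest gene to CSF2 at lower coordinates, 10585 bases away, is one of the genes without counts.

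Of 9 other receptor genes 6 were tested and none passed. By edgeR 1 gene in each direction had an unadjusted p under 0.05, where 14.1% of all tested genes passed. DESeq2 called 0, and 3.89% of all tested genes. OSMR, the oncostatin M receptor, had 13.2, 11.2 and 12.0 FPKM with the empty vector and 25.1, 13.5 and 20.3 FPKM with DNAJC12, without overlap. Its log2 fold change was 0.71 (adjusted p = 0.241, edgeR). CSF2RA, the alpha chain of the GM-CSF receptor, had 9.06 and 11.5 FPKM in the means of the empty vector and overexpression groups, also without overlap. Its log2 fold change was 0.35 (adjusted p = 0.462, edgeR). Of the 6 tested receptors, 2 were higher and 1 lower without overlap between groups, against 9.26% and 10.8% of all tested genes. Receptors of the colony-stimulating factors and of IL-11 were chosen for mention after their values were seen. CSF3R, the G-CSF receptor, had no count in any library, which does not exclude a level too low to be read at this depth. CSF2RB, the signalling chain of the GM-CSF receptor, had 1 to 8 counts. IL11RA had 1.29 ± 0.0659 FPKM with the empty vector and 0.985 ± 0.294 with DNAJC12 (SD, n = 3), and CSF1R, the receptor of CSF1, 1.52 ± 0.194 and 0.990 ± 0.406.

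The signalling genes did not pass the test in any of 10 cases, with a median log2 fold change of 0.17. None had an unadjusted p under 0.05, where 14.1% of all tested genes passed. None was called by DESeq2, which called 3.89% of all tested genes. GRB2, an adaptor, had 45.5, 53.4 and 51.1 FPKM with the empty vector and 38.5, 51.03 and 40.2 with DNAJC12. The groups overlapped, as they did for STAT3, the main transcription factor of the pathway, with 19.2 ± 1.11 and 19.7 ± 2.66 FPKM (SD, n = 3). None of 7 feedback inhibitors passed edgeR's test. Beside the same shares of all tested genes, 1 inhibitor in each direction had an unadjusted p under 0.05, and DESeq2 called 0. SOCS3, an inhibitor that STAT3 induces, had 41.8 ± 8.46 FPKM with the empty vector and 38.8 ± 9.62 with DNAJC12, a log2 fold change of -0.10. PIAS3, a STAT3-binding protein, had a log2 fold change of -0.57 (adjusted p = 0.330).

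Of 14 genes that respond to STAT3, none passed edgeR's test. Their fold changes were above 0 in 12 and below 0 in 2, with a median log2 fold change of 0.40 against 0.05 over all genes tested. In 5 of them every overexpression library was above every empty vector library, against 9.26% of all tested genes. The unadjusted p was under 0.05 for 5 higher and 0 lower genes, where 14.1% of all tested genes passed. DESeq2 called 1 higher, and 3.89% of all tested genes. IER3, a stress-responsive survival gene, had 1133 ± 59.8 FPKM with the empty vector and 1391 ± 346 with DNAJC12 (SD, n = 3). FOSL1, an AP-1 subunit and one of the 2 genes below 0, had 291 ± 21.4 and 269 ± 87.2. CEBPB, chosen for mention after its values were seen, had the largest rise of the 14, without overlap between the groups. It had 181, 267 and 259 CPM with the empty vector and 379, 658 and 494 CPM with DNAJC12. Its log2 fold change was 1.11 ± 0.26 (SE), with an adjusted p of 0.0755 by edgeR. Of 18 alternatives, 8 called it. Of these 8, the GC correction called 17.4% of all tested genes and the replicate block 13.3%. The fits without overexpression replicate 2 or both libraries numbered 2, also among the 8, called 22.5% and 18.7%.

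Among cytokines that induce these ligands and their receptors, IL1B fell and 5 of 6 tested genes did not pass. Unadjusted p-values were under 0.05 for 2 lower and 0 higher genes of this list, where 14.1% of all tested genes passed. DESeq2 called 2 of the list lower, and 3.89% of all tested genes. IL1B encodes interleukin-1 beta, a known inducer of CSF2, CSF3, IL6 and IL11. It had 239, 199 and 214 CPM in empty vector replicates 1 to 3 and 25.2, 24.4 and 27.2 CPM in overexpression replicates 1 to 3, a log2 fold change of -3.08 ± 0.21 (SE) with an adjusted p of 0.000310 by edgeR. IL1A, interleukin-1 alpha, chosen for mention after its values were seen, had 22.9, 16.2 and 19.0 CPM with the empty vector and 10.7, 5.18 and 7.20 CPM with DNAJC12, without overlap. Such a fall without overlap was found in 10.8% of all tested genes. The log2 fold change of IL1A was -1.33 ± 0.32 (SE) with an adjusted p of 0.0839 by edgeR. Of 18 alternatives, 8 called it, the GC correction among them (adjusted p = 0.000243, edgeR). That correction called 17.4% of all tested genes, and the replicate block, which also called IL1A, 13.3%. TNFRSF1A, a receptor of TNF, had a log2 fold change of -0.06. Of 7 factors of mRNA decay, ZFP36 and ZFP36L1 rose and the other 5 did not pass. For the decay list the unadjusted p was under 0.05 for 3 higher and 0 lower genes, against 14.1% of all tested genes. DESeq2 called 2 higher, against 3.89%. ZFP36 and ZFP36L1 bind AU-rich elements and promote the decay of cytokine mRNAs. ZFP36 had 92.9, 107 and 88.5 CPM with the empty vector and 184, 278 and 226 CPM with DNAJC12, a log2 fold change of 1.26 (adjusted p = 0.0310, edgeR). ZFP36L1 had 65.1, 71.6 and 76.5 against 146, 139 and 167 CPM, a log2 fold change of 1.08 (adjusted p = 0.0312). Neither was called without overexpression replicate 3 (adjusted p = 0.165 and 0.224, edgeR) or without any 1 empty vector library (lowest adjusted p 0.124 and 0.177), and IL1B was called in every such fit. Of all 54 tested genes of the 7 lists, 2 rose, 1 fell and 51 did not pass, where 1.25% of all tested genes were called. Their part in the values of the members was not tested.

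Of the nearest genes on each side of the 3 members that fell, MED24 alone had enough counts to be tested, and it did not pass. MED24, the nearest gene to CSF3 at higher coordinates and 1283 bases away, had a log2 fold change of -0.17 (adjusted p = 0.827, edgeR). The lincRNA AC090844.3 on the other side of CSF3 had at most 1 count. FAM71E2 and TMEM190, on the lower and higher side of IL11, had at most 2 and 5 counts in a library, and the snoRNA RF00285 beside CSF2 had none. Genes that overlap members on the other strand could share reads with them, since the strand setting of the counting is not given in the sources used here. RAD9A, which spans CLCF1, had 276 to 514 counts in a library beside 410 to 597 for CLCF1, so the level of CLCF1 is uncertain. AC016596.1, a pseudogene within IL6ST, had 39 to 77 counts, with 74 beside 253 for IL6ST in overexpression replicate 2. LIFR-AS1 had up to 18 counts, reached in the same library beside 60 for LIFR, so the low values of both receptors there are uncertain too. The antisense genes over IL6 and LIF had at most 15 and 27 counts, and CSF1, CSF2, CSF3 and IL11 overlapped no other gene.

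**Figure D5:**
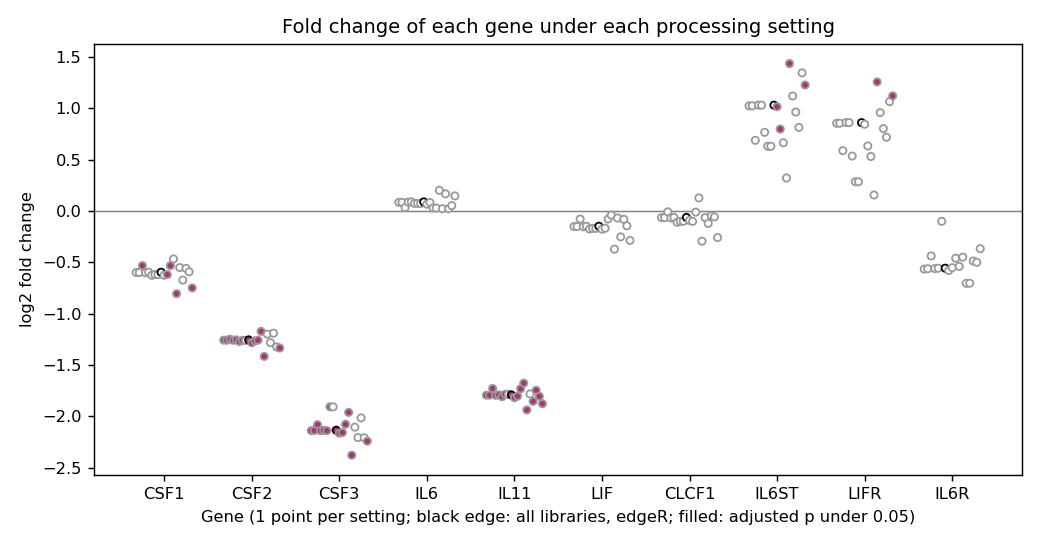
Log2 fold change of each gene under each processing setting, 1 point per setting, with a black edge for the fit of all libraries and filled points for an adjusted p under 0.05. CSF2, CSF3 and IL11 stay between -2.38 and -1.17 throughout, IL6 stays between 0.02 and 0.20, and IL6ST and LIFR spread from 0.16 to 1.44.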

How the data were processed

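The deposited tables held, for 58735 genes in 6 libraries, read counts per gene and FPKM, both computed by the authors. HISAT2 2.0.5 and hg19 are named in the submitters' processing notes. Symbols, strands and coordinates matched GENCODE 29 (GRCh38) for each of the 58735 genes, so that build is used for coordinates. Which program counted the reads, and whether by strand, is not given in the sources used here. The deposited FPKM imply a depth of 0.854 to 1.10 times the total count of a library.

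Groups were compared with edgeR 4.0.16 (R 4.3.3) by the quasi-likelihood test with TMM normalization, robust dispersions and filterByExpr (minimum count 10, minimum total 15). P-values were adjusted by Benjamini-Hochberg over 14520 genes, with a threshold of 0.05. CPM used TMM library sizes. Standard errors and 95% intervals come from the same fit, whose biological coefficient of variation was 26.6%. The GC correction took a loess trend (span 0.3) of log2 CPM (prior count 2) on the mean GC content of each gene's GENCODE 29 transcripts as an offset. Other alternatives were DESeq2 1.42.0 (size factors and Wald test), a replicate block, fits without 1 or 2 libraries, low-count filters (none, or at least 1 CPM in 3 libraries), library sizes without DNAJC12, and limma 3.58.1 on log2 FPKM with pseudocounts of 1 and 0.1 (genes at 0.5 FPKM in 3 libraries, or all genes with a count). The test was also run on simulated counts with a common dispersion and no GC trend, which does not show how it performs on these libraries. Members, pathway lists and alternatives were chosen with earlier results of these data known. The text names every member, DNAJC12, marker genes, the called genes of each list or its 2 most abundant, and the neighbours of called members. It also names genes that overlap members, and IL5 and IL31, which had no counts. Other list genes were named after their values were seen: CSF1R, CSF2RB, CSF3R, IL11RA, IL1A and CEBPB. Figures used matplotlib 3.10.9.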

Additional observations from a re-analysis of the deposited data

How the results depend on the processing

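In 18 alternatives, 178 values of the 10 members were computed. The direction and side of the threshold were kept in 154. The direction reversed in 1, CLCF1 without overexpression replicate 1 (0.13). IL6 and LIF were called in no alternative, and neither were CLCF1 and IL6R. IL6R was under the FPKM filter and had no value in the 2 limma fits that use it.

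By limma on log2(FPKM + 1) with no filter, which tested 27310 genes, CSF2 (-1.26), CSF3 (-1.91) and IL11 (-1.79) were not called, so 0 members were called lower. CSF1 was called after the GC correction (-0.53), without both libraries numbered 2 (-0.75), and with the block and the GC correction together (-0.53). IL6ST was called with no filter (1.02) and without both libraries numbered 2 (1.23), and LIFR without both (1.12). Members called higher were 1 with no filter and 2 without both libraries numbered 2. Over the fits without 1 library, 0 to 4 members were called lower and 0 to 2 higher. Log2 fold changes in these fits ran from -0.81 to -0.47 for CSF1, -1.42 to -1.17 for CSF2, -2.38 to -1.96 for CSF3, -1.94 to -1.68 for IL11, 0.32 to 1.44 for IL6ST, 0.16 to 1.26 for LIFR and -0.29 to 0.13 for CLCF1.

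Deviations from the group mean correlated between same-numbered libraries at 0.448 for replicate 1 and 0.585 for replicate 2, but at 0.0335 for replicate 3. Overexpression replicate 3 correlated best with empty vector replicate 1 (0.224), so the numbers were not taken as pairs. With a replicate block, CSF1 (-0.62) and IL6ST (0.80) were called, 1 member was higher, 11 pathway genes were higher and 4 lower, and 1011 genes were higher and 926 lower among all tested. With the replicate block and GC correction together, IL6ST was not called (0.66, adjusted p = 0.0511, edgeR), 0 members were higher, 14 pathway genes were higher and 4 lower, against 1579 and 1516 genes among all tested.

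Over the whole table, 85 genes were higher and 96 lower. The counts were 289 and 276 by the DESeq2 Wald test, 1283 and 1238 after the GC correction, 366 and 322 with no filter, 8 and 4 by limma on log2(FPKM + 1) with no filter, and 1514 and 1240 without both libraries numbered 2. Without 1 library they ran from 15 to 1805 higher and from 6 to 1560 lower. Pathway genes, 2 higher and 1 lower, came to 13 and 4 after the GC correction, 4 and 2 with no filter, 13 and 6 without both libraries numbered 2, 0 higher by limma with no filter and 2 lower by DESeq2. Without 1 library, 0 to 13 were higher and 1 to 9 lower. The cause of these changes was not tested. IL6R had 15 to 34 counts in a library, and its 95% interval ran from -1.31 to 0.19.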
